A study of Mus musculus with 6 samples.

Results

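Cathepsins are proteases that work mostly inside lysosomes, and the mRNA of 10 of their genes (Ctsb, Ctsc, Ctsd, Ctse, Ctsh, Ctsk, Ctsl, Ctss, Ctsw and Ctsz) was described here in subcutaneous H22 tumours from luteolin-treated and control mice. The genes were chosen by symbol, and all 10 were found among the 21720 gene symbols of the deposited table. All 10 passed the filter on low counts, which left 14963 genes for testing. H22 is a mouse hepatocellular carcinoma line. It was injected under the skin of wild-type female BALB/c mice that were 6 to 8 weeks old. The control group received 0.5% carboxymethyl cellulose sodium by gavage, and the luteolin group received luteolin, a plant flavonoid, at 200 mg/kg. Each was given once a day for 21 days in 0.2 mL, starting at a tumour volume of about 50 mm3. RNA of whole tumours was sequenced in 3 libraries per group. The labels do not say that the libraries of a group came from separate animals, so the p values measure the spread between these libraries, which may be technical.

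Total counts ranged from 61081637 to 80442954 per library, and luteolin replicate 2 had the largest total and the most genes above 0 (16767, against 15579 to 16012 in the others). The values are whole numbers that were analysed as estimated counts, since whole multiples of 4 made up 44.8% of the low values (1 to 40). CPM below are counts per 1000000 counts of the library, after TMM scaling has corrected the totals for differences in composition. Of the listed hepatocyte and hepatoma genes, Trf, the gene of transferrin, had 294 to 347 CPM in the control libraries and 122 to 283 CPM in the luteolin libraries, and Alb, the gene of albumin, had 0.868 to 60.3 and 26.0 to 132.5 CPM. Afp, an oncofetal liver gene, had 56.5 ± 11.9 CPM in control and 37.8 ± 4.67 CPM in luteolin tumours (SD, n = 3 each), while the liver transcription factor gene Hnf4a had between 0 and 20 counts in each library. Skin mRNA differed between libraries, with a summed level of 10 keratinocyte genes of 379, 8787 and 20.1 CPM in luteolin replicates 1, 2 and 3 against 13.7 to 17.8 CPM in the control group.

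Most cathepsins are made as inactive proenzymes that are cut to their mature form in the acid lysosome. Those with a cysteine in the active site (B, C, H, K, L, S, W and Z) form the papain-like class, while cathepsins D and E are aspartic proteases. Some are made by nearly all cells to turn over protein. Others are linked to particular cells, such as cathepsin S to antigen-presenting cells, cathepsin K to osteoclasts and activated stromal cells, and cathepsin W to cytotoxic lymphocytes. Macrophages are a known source of cathepsins in tumours. Lysosomal genes often carry an E-box in the promoter that is bound by TFEB, the factor that drives lysosome formation, and genes of myeloid cells often carry a PU.1-type site.

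To show these letters in the cathepsin genes, promoter windows of RefSeq (GRCm38.p6) were searched, which exist for 6 of the 10 genes (Ctsc, Ctsd, Ctsk, Ctsl, Ctss and Ctsz). Each window runs from 250 bases before the transcript start to 50 bases after it. The motifs were CACGTG (the E-box), TCACGTG (a longer form that overlaps it), AGGAAGT (the PU.1-type letters) and an interferon-response-type motif of GAAA, any 2 bases and GAAA, on both strands. Of all 32851 promoter windows of this length, 7.15% hold CACGTG, 3.77% TCACGTG, 9.35% AGGAAGT and 3.44% the interferon-response-type motif. Ctss and Ctsc are shown as genes that were higher in the luteolin group, and Ctsd as a gene whose level differed little. Capitals mark the matches, the sequence is on the strand of the gene, and it stops 30 bases after the start. The Ctss window (chr3:95526536-95526815, plus strand) holds an interferon-response-type match that begins 21 bases before the start and an AGGAAGT match on the opposite strand that begins 2 bases before it. The Ctsc window (chr7:88277835-88278114, plus strand) holds an AGGAAGT match on the opposite strand 151 bases before the start. The Ctsd window (chr7:142387798-142388077, minus strand) holds 2 CACGTG matches, which begin 245 and 98 bases before the start and both extend to TCACGTG. Starts here are those of RefSeq. In GENCODE M21 the Ctsd gene begins further upstream, at 142388038, so the match 98 bases before the RefSeq start lies inside the gene. All matches are of letters and not measured binding sites.
Ctss: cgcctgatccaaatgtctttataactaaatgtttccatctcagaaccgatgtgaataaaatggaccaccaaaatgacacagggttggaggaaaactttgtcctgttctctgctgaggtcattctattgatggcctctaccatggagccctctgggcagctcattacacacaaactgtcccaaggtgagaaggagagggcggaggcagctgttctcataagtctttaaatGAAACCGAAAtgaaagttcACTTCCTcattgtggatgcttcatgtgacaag
Ctsc: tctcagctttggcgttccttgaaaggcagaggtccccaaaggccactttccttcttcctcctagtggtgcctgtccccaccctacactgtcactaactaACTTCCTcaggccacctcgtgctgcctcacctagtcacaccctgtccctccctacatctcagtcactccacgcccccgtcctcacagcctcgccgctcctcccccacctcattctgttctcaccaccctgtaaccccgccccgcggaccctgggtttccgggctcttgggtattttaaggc
Ctsd: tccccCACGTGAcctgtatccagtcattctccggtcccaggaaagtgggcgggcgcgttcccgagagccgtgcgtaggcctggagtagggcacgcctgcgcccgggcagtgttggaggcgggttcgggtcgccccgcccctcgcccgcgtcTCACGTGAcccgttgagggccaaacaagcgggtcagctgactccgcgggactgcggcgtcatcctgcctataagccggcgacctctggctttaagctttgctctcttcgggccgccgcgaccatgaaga
The Ctsl window held 1 CACGTG match, 236 bases before the start, and no match was found in the windows of Ctsk and Ctsz. By GENCODE M21 the whole Ctsl window lies inside the gene.

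Luteolin tumours had more cathepsin mRNA than control tumours for most of the 10 genes. With the study's call rule, which asks for a fold change over 2 and p under 0.05 before adjustment, 6 of the 10 were higher in the luteolin group (Ctsk, Ctsh, Ctse, Ctsw, Ctss and Ctsc), against 11.3% of all genes tested, and 0 of 10 were lower, against 1.52%. Adjusted p values are those of the quasi-likelihood test in edgeR, corrected by Benjamini-Hochberg over all genes tested. At an adjusted p under 0.05, Ctsk and Ctsc were higher and 0 were lower, where 1.34% and 0.187% of all genes were called. In edgeR, DESeq2 and limma's voom alike, 8 of the 10 genes were higher at an unadjusted p under 0.05 and 0 were lower. Of all genes, 14%, 14.2% and 19.3% were higher by these tools at that p, and 6.44%, 6.73% and 17.3% were lower. At an adjusted p under 0.05, DESeq2 and limma's voom each called 7 of the 10 cathepsins higher, where 8.67% and 12.6% of all genes were, and 0 lower, where 2.33% and 8.76% were. In 8 of 10 genes each luteolin library lay above each control library, against 15.9% of all genes, and in 0 of 10 each lay below, against 12.8%. The median log2 fold change was 1.11 over the 10 genes and -0.0073 over all genes tested. Summed over the 10 genes, cathepsin mRNA made up 0.386% to 0.397% of the counts of a control library and 0.535%, 0.615% and 0.633% in luteolin replicates 1, 2 and 3.

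**Figure D1:**
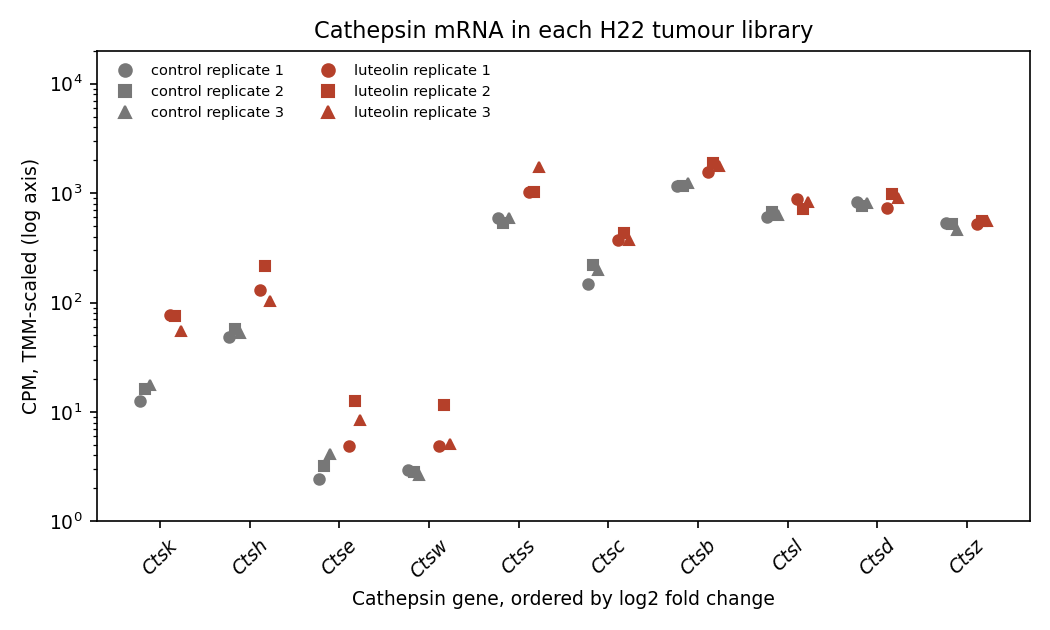
TMM-scaled CPM of the 10 cathepsin genes (log axis) in each of the 3 control libraries (grey) and the 3 luteolin libraries (red), with the replicate given by the symbol and the genes ordered by log2 fold change. For Ctsk the luteolin libraries lie between 54.3 and 76.3 CPM and the control libraries between 12.7 and 17.6, while the groups overlap for Ctsd and Ctsz.

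The collagen-degrading cathepsin K showed the largest difference of the 10. Ctsk (ENSMUSG00000028111, chromosome 3, 95499256 to 95509362 on GRCm38) had 12.7, 16.2 and 17.6 CPM in control replicates 1, 2 and 3 and 76.3, 74.5 and 54.3 CPM in luteolin replicates 1, 2 and 3. All luteolin libraries were far above all control libraries, and luteolin replicate 2 did not stand apart from replicate 1. On the log2 scale the luteolin libraries were higher by 2.14 (standard error 0.22, edgeR adjusted p = 0.0306), which placed Ctsk at rank 11 of the 14963 genes by p. Leaving out any 1 of the 6 libraries gave values from 1.99 to 2.24. In bulk tissue, more cells of a type and more RNA per cell cannot be told apart.

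Ctsk is the defining protease of osteoclasts, and it is also made by fibroblasts. Of 7 osteoclast genes, Calcr, the calcitonin receptor gene, was at 0 counts in each of the 6 libraries. The summed level of the 7 genes was 23.9 to 27.3 CPM in the control libraries and 54.5, 72.3 and 48.5 CPM in luteolin replicates 1, 2 and 3. Of the 6 tested, 3 were higher at the study's threshold (Tnfrsf11a, Nfatc1 and Itgb3, the gene of integrin beta-3), against 11.3% of all genes tested. Acp5, another gene of osteoclasts that was placed in the lysosome list here, had 152 ± 20.1 CPM in control and 134 ± 34.6 CPM in luteolin tumours. Its log2 fold change was -0.18, with overlapping groups. The summed level of 8 fibroblast genes was 1522 to 1709 CPM in the control libraries and 4340, 5388 and 2301 CPM in luteolin replicates 1, 2 and 3. Of these, 6 of 8 were higher at the study's threshold. Luteolin replicate 3 was the lowest of its group in the osteoclast sum, in the fibroblast sum and in Ctsk. The same held for the neutrophil, keratinocyte, skeletal muscle and adipocyte sums. It did not hold for the macrophage, dendritic cell, B-cell, T-cell, NK cell and hepatocyte sums. Ctsk was highest in luteolin replicate 1, whereas the osteoclast and fibroblast sums were highest in replicate 2. The part of these cells in the Ctsk difference was not tested.

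Cathepsin S, which trims the invariant chain so that class II molecules can load peptides, had the highest level per length of the 10 genes. Ctss (ENSMUSG00000038642, chromosome 3, 95526786 to 95556403) had 588, 530 and 588 CPM in control replicates 1, 2 and 3 and 1030, 1029 and 1740 CPM in luteolin replicates 1, 2 and 3. The groups did not overlap, and luteolin replicate 3 was well above the other libraries of its group. This gave a log2 fold change of 1.16 (standard error 0.23, edgeR adjusted p = 0.0661), past the study's threshold and short of 0.05 after adjustment. Without luteolin replicate 3 it was 0.81, under a 2-fold change.

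Cathepsin H, an aminopeptidase, was also higher in the luteolin group. Ctsh (ENSMUSG00000032359, chromosome 9, 90054152 to 90076089) had 48.6, 57.8 and 53.1 CPM in control replicates 1, 2 and 3 and 130, 216 and 104 CPM in luteolin replicates 1, 2 and 3. The control libraries lay close together, whereas luteolin replicate 2 was the highest of its group. The log2 fold change of 1.5 (standard error 0.28) had an edgeR adjusted p of 0.0574. It was 1.16 without luteolin replicate 2, and it was past the study's threshold in each of 17 alternative settings.

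Cathepsin C, or dipeptidyl peptidase I, activates the granule proteases of cytotoxic lymphocytes, neutrophils and mast cells by removing a dipeptide from their amino terminus. Ctsc (ENSMUSG00000030560, chromosome 7, 88278085 to 88310888) had 149, 219 and 197 CPM in control replicates 1, 2 and 3 and 377, 429 and 370 CPM in luteolin replicates 1, 2 and 3. The luteolin libraries were close to each other and all above the controls. This gave a log2 fold change of 1.06 (standard error 0.18, edgeR adjusted p = 0.0476), just over 2-fold. It fell under 2-fold without control replicate 1, at 0.89.

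Ctsw and Ctse were the least abundant of the 10 per length. Ctsw (ENSMUSG00000024910, chromosome 19, 5465043 to 5468507), which encodes a cathepsin found in CD8+ T cells and NK cells, had 204, 182 and 171 counts in control replicates 1, 2 and 3 and 299, 973 and 322 counts in luteolin replicates 1, 2 and 3. This is 2.92, 2.81 and 2.65 CPM against 4.88, 11.7 and 5.04 CPM. The groups did not overlap, and luteolin replicate 2 was far above the other libraries. This gave a log2 fold change of 1.36 (standard error 0.43, edgeR adjusted p = 0.157). It was 0.85 without luteolin replicate 2, and without control replicate 3 it was 1.32 and no longer past the study's threshold. The 9 T-cell genes had summed levels of 13.4 to 16.5 CPM in the control libraries and 47.6, 89.4 and 51.9 CPM in luteolin replicates 1, 2 and 3. At the study's threshold 9 of 9 were higher, against 11.3% of all genes tested. In the NK cell list, Ncr1, Klrb1c and Klrk1 were higher at the study's threshold, while Klra8 was at 0 in each library and Eomes had 82.0 ± 11.1 CPM in control and 45.2 ± 8.05 CPM in luteolin tumours. The T-cell sum, like Ctsw, was highest in luteolin replicate 2, as were 8 of the 9 genes. Among these, Cd8b1 had 3.82, 4.39 and 3.82 CPM in luteolin replicates 1, 2 and 3. Cd8a, a marker of CD8+ T cells, was lowest of its group there, at 11.3, 9.43 and 10.6 CPM in the same order. Within the luteolin group the macrophage, osteoclast, B-cell, neutrophil, fibroblast, keratinocyte, skeletal muscle and adipocyte sums were also highest in replicate 2. The dendritic cell, NK cell and hepatocyte sums were not, so this order is not particular to T cells. The part of T cells, NK cells or any of the others in the Ctsw difference was not tested.

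Cathepsin E is an aspartic protease of surface epithelia, mainly of the stomach, and of some immune cells. Ctse (ENSMUSG00000004552, chromosome 1, 131638306 to 131675505) had 2.46, 3.20 and 4.16 CPM in control replicates 1, 2 and 3 and 4.91, 12.5 and 8.43 CPM in luteolin replicates 1, 2 and 3. The lowest luteolin library was only a little above the highest control library. This gave a log2 fold change of 1.40 (standard error 0.43, edgeR adjusted p = 0.148). It was 1.05 without luteolin replicate 2, and 0.85 with limma's voom, under 2-fold. Of 7 genes of stomach epithelium, 4 were at 0 counts in each library (Muc5ac, Gkn2, Tff1 and Tff2), and the sum of the 7 was at most 0.419 CPM in any library. Luteolin replicate 2, the highest for Ctse, also had the most keratinocyte mRNA (8787 CPM). Luteolin replicate 3 had more Ctse than replicate 1 but less keratinocyte mRNA (20.1 against 379 CPM). The part of skin in the Ctse difference was not tested.

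Cathepsins B and L, endopeptidases found in nearly all cells, differed by less than 2-fold. Ctsb (ENSMUSG00000021939, chromosome 14, 63122462 to 63145923) had 1161, 1160 and 1241 CPM in control replicates 1, 2 and 3 and 1569, 1893 and 1774 CPM in luteolin replicates 1, 2 and 3. Ctsl (ENSMUSG00000021477, chromosome 13, 64359337 to 64370890) had 609, 666 and 630 CPM in the control replicates and 882, 717 and 825 CPM in the luteolin replicates, in the same order. In both genes each luteolin library was above each control library, and the distance between the groups was small for Ctsl. For Ctsb the log2 fold change came to 0.56 (standard error 0.13, edgeR adjusted p = 0.0861) and for Ctsl to 0.35 (standard error 0.14, edgeR adjusted p = 0.216).

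Cathepsin D, the main lysosomal aspartic protease, and the carboxypeptidase cathepsin Z had nearly equal levels in both groups. Ctsd (ENSMUSG00000007891, chromosome 7, 142375911 to 142388038) had 832, 766 and 812 CPM in control replicates 1, 2 and 3 and 734, 986 and 898 CPM in luteolin replicates 1, 2 and 3. Ctsz (ENSMUSG00000016256, chromosome 2, 174427493 to 174439039) had 532, 524 and 463 CPM in the control replicates and 523, 556 and 560 CPM in the luteolin replicates. The groups overlapped in both genes. For Ctsd the log2 fold change came to 0.12 (standard error 0.15, edgeR adjusted p = 0.722) and for Ctsz to 0.11 (standard error 0.13, edgeR adjusted p = 0.692).

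**Figure D2:**
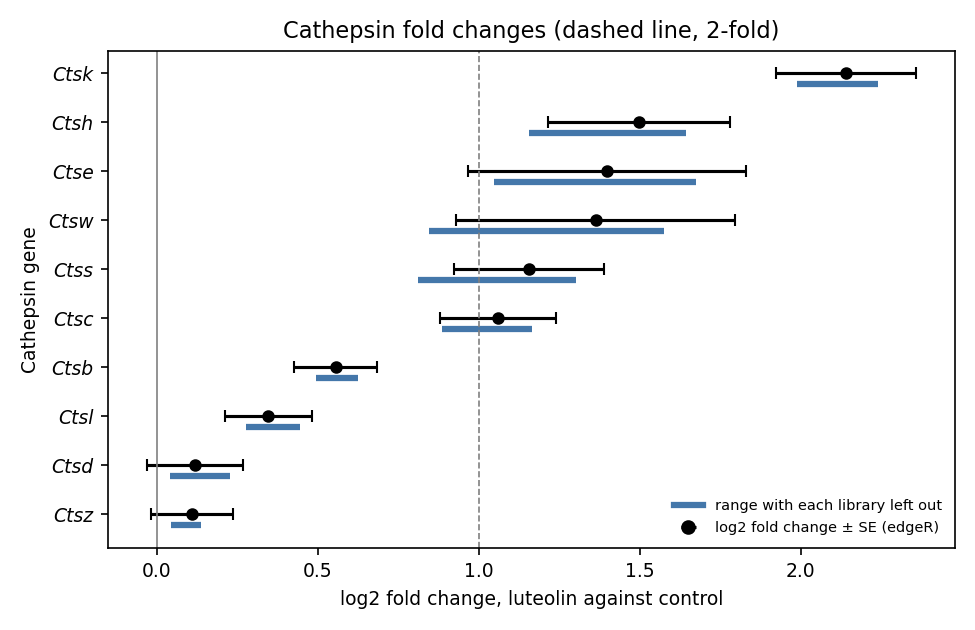
Log2 fold change of each cathepsin gene, luteolin against control, from edgeR (black points, with bars of 1 standard error), and the range of the log2 fold change when any 1 of the 6 libraries is left out (blue bars). The dashed line marks a 2-fold change, which Ctsk exceeds in each case (1.99 to 2.24) and Ctsd and Ctsz stay far below.

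Some of these genes share exon sequence with a neighbour, and how the authors' counting treated strand is not given in the sources used here. In GENCODE M21, 12.8% of the Ctsb exon sequence is shared with Fdft1 on the opposite strand, and 34.4% of the Ctsd exon sequence with the predicted gene Gm49369 on the same strand. Fdft1 had 74.1 ± 13.8 CPM in control and 67.3 ± 5.36 CPM in luteolin tumours. Gm49369 had 33 counts in control replicate 1, 473 in luteolin replicate 3 and 0 in the other libraries, against at least 44964 for Ctsd. For Ctsw and Ctsz the shared part was 0.477% and 0.694%. Ctsl shares 26.8% with an antisense RNA gene and 6.09% with a processed pseudogene on its own strand, neither of which has a row among the symbols used here.

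The composition of the cathepsin mRNA was compared per length, as CPM per kilobase of exon. In the control group the order was Ctss, Ctsz, Ctsd, Ctsb, Ctsl, Ctsc, Ctsh, Ctsk, Ctsw and Ctse, from 419 ± 24.5 to 1.03 ± 0.268 CPM per kilobase (SD, n = 3). Ctsz and Ctsd changed places between libraries and did not differ beyond their spread. Ctsh was above Ctsk in each control library, although their ranges overlapped. In the luteolin group Ctss was again first, at 932 ± 302 CPM per kilobase, and Ctsk passed Ctsh in each of the 3 libraries. The ranges of Ctsz and Ctsd, of Ctsd and Ctsb, of Ctsk and Ctsh, and of Ctsw and Ctse overlapped there. With the longest transcript as the length instead of all exons, Ctsd came before Ctsz by the mean of both groups. Ctsk was then above Ctsh in only 1 of the 3 luteolin libraries, and Ctsl above Ctsc in 2 of 3, against 3 by all exons. Ctsw was above Ctse in 2 of 3 libraries of each group, also against 3. The order of these pairs depends on the length used.

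Ctss made up 28.6% ± 1.29 of the summed level per kilobase of the 10 genes in control tumours and 40.9% ± 7.48 in luteolin tumours (SD, n = 3 each). The sum was 1438 to 1488 CPM per kilobase in the control libraries and 1977, 2167 and 2600 in luteolin replicates 1, 2 and 3. The share of Ctsz was 24.0% ± 1.77 and 17.04% ± 1.83, and that of Ctsd 23.4% ± 0.604 and 16.6% ± 2.43. Ctsk had a share of 0.702% ± 0.122 in control and 2.07% ± 0.612 in luteolin tumours. These shares add to a fixed total, so a larger share of Ctss leaves less for the other genes.

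**Figure D3:**
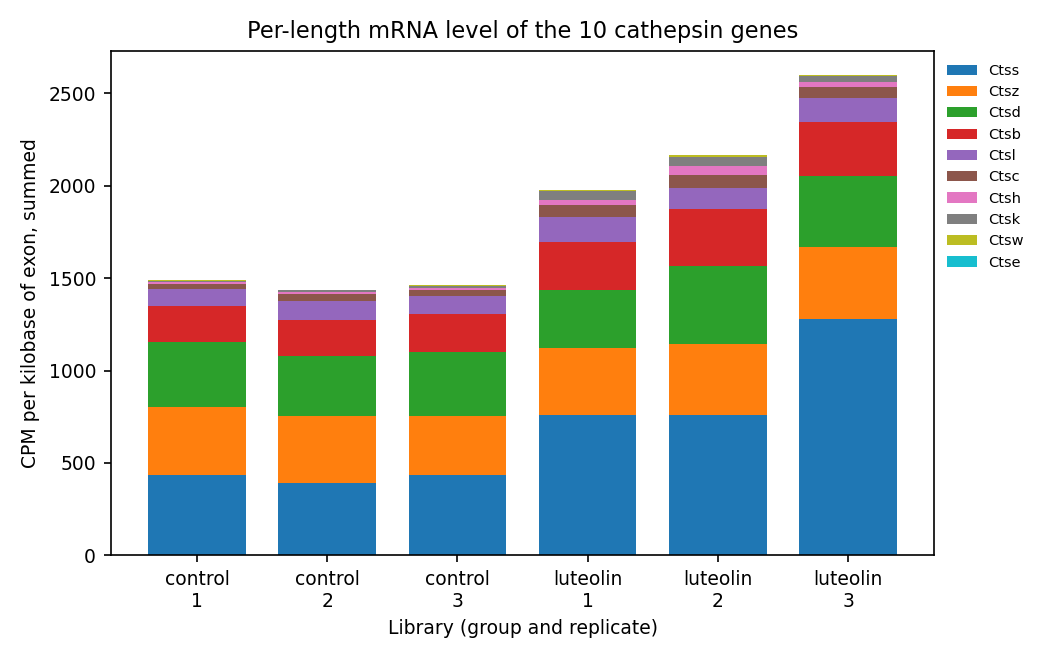
Stacked bars of CPM per kilobase of exon of the 10 cathepsin genes in each library, with the genes stacked from the highest (Ctss, bottom) to the lowest mean of the control group. The total is 1438 to 1488 in the control libraries and 1977 to 2600 in the luteolin libraries, and the Ctss part is largest in luteolin replicate 3.

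Since macrophages make many cathepsins, each gene was also set against macrophage markers in the same library. The mean log2 CPM of 13 tested macrophage genes was 6.08 in control and 6.91 in luteolin tumours, a difference of 0.828. Their list had a summed level of 1156 to 1350 CPM in the control libraries and 1966, 2656 and 2129 CPM in luteolin replicates 1, 2 and 3. Of the 13 genes, 3 were higher at the study's threshold (Cd68, Fcgr1 and Cd163), against 11.3% of all genes tested. The 3 most abundant, C1qa, C1qc and Mrc1, had log2 fold changes of 0.80, 0.91 and 0.74, under 2-fold. Marco, also on the list, had 8 counts in luteolin replicate 2 and 0 in the other 5 libraries.

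Relative to this mean, all luteolin libraries lay above all control libraries for Ctsk and Ctsh, with differences of the group means of 1.31 and 0.602 on the log2 scale. All luteolin libraries lay below all control libraries for Ctsd, Ctsz, Ctsl and Ctsb, with differences of -0.719, -0.716, -0.486 and -0.276. Each of these 6 differences had p = 0.1 in an exact two-sided permutation test (adjusted p = 0.167 over 10 genes), where 0.1 is the smallest p that 3 libraries against 3 allow. The gap between the groups was small for Ctsh (-0.0744 in luteolin replicate 3, -0.128 in control replicate 2). It was also small for Ctsb (4.02 in luteolin replicate 3, 4.05 in control replicate 3). Without Cd68 in the macrophage list the Ctsb difference was -0.249, with p = 0.2 in the exact test. For Ctss, Ctsc, Ctse and Ctsw the groups overlapped, with differences of 0.282, 0.246, 0.493 and 0.403 and p values of 0.7, 0.4, 0.3 and 0.4 in the same exact test. The Ctss difference turned to -0.036 without luteolin replicate 3.

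**Figure D4:**
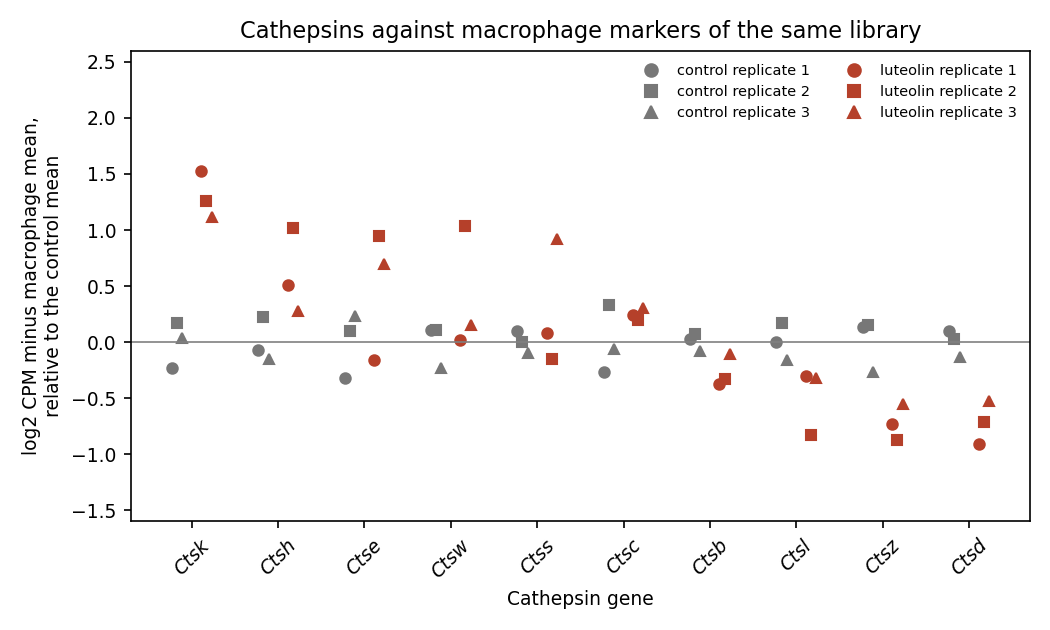
Log2 CPM of each cathepsin gene minus the mean log2 CPM of 13 macrophage genes of the same library, drawn relative to the mean of the control group, with grey for control and red for luteolin libraries. Ctsk and Ctsh lie above the control libraries in each luteolin library, and Ctsb, Ctsl, Ctsz and Ctsd lie below.

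Other leukocytes that make Ctss, Ctsh and Ctsc were measured by their markers in the same libraries. The summed level of 8 dendritic cell genes was 122 to 135 CPM in the control libraries and 191, 273 and 287 CPM in luteolin replicates 1, 2 and 3. Of these, 6 of 8 were higher at the study's threshold, against 11.3% of all genes tested. Itgax, the gene of CD11c, had 87.7 ± 2.39 CPM in control and 194 ± 59.1 CPM in luteolin tumours. Zbtb46 went the other way, at 30.5 ± 5.02 CPM in control and 24.4 ± 3.17 CPM in luteolin tumours (log2 fold change -0.33). Clec9a had a log2 fold change of 0.51, and for both genes the groups overlapped. For 6 B-cell genes the sums were 11.5 to 13.4 CPM and 14.3, 42.1 and 33.7 CPM, with 2 of 5 tested genes higher. For 7 neutrophil genes they were 18.97 to 22.4 CPM and 169, 182 and 79.8 CPM, with 5 of 7 higher. Ly6g and Retnlg of this list were not called, with log2 fold changes of -0.57 and 0.43 and overlapping groups. Ly6g, a marker of mouse neutrophils, had only 0 to 36 counts per library. In edgeR 11.3% of all genes tested were higher at the study's threshold and 1.52% lower. Of the tissue lists, 0 of 7 skeletal muscle genes passed the study's threshold in edgeR (0 also at an unadjusted p under 0.05, while DESeq2 called 1 and limma's voom 3 lower). Among tested adipocyte genes 1 of 5 was higher, and among tested hepatocyte and hepatoma genes 1 of 7 was higher (Gpc3). Trf and Afp of the same list were lower at an unadjusted p under 0.05 in edgeR, by under 2-fold, and limma's voom called 1 gene lower at the study's threshold and 2 at an adjusted p under 0.05. The adipocyte sum was 245 CPM in luteolin replicate 2, 47.4 and 17.7 CPM in luteolin replicates 1 and 3 and 14.4 to 60.7 CPM in the control libraries. The part of these cells and tissues in the cathepsin differences was not tested.

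None of the other cathepsin genes of the mouse passed the study's threshold. Of 13 further cathepsin genes, 9 were at 0 counts in each of the 6 libraries (Ctsj, Ctsm, Ctsq, Ctsr, Cts3, Cts6, Cts7, Cts8 and Ctsll3), most of which belong to a placental cluster of the mouse. A count of 0 allows up to 3 counts, or 0.0359 to 0.0490 CPM, for counting error only. Where values come in multiples of 4, the limit is 12 counts and so higher. The other 4 were tested, and 0 of 4 passed the study's threshold in edgeR, DESeq2 or limma's voom. In edgeR 11.3% of all genes tested were higher at that threshold and 1.52% lower. These tools gave 0, 0 and 2 of the 4 genes at an unadjusted p under 0.05 and 0, 0 and 1 at an adjusted p under 0.05. In limma's voom 19.3% of all genes were higher at that unadjusted p and 12.6% at that adjusted p. Ctsa, a carboxypeptidase that also protects other lysosomal enzymes, had 241 ± 18.9 CPM in control and 314 ± 51.4 CPM in luteolin tumours, a log2 fold change of 0.38. Ctsg, the neutrophil granule serine protease cathepsin G, had 8 counts in each control library and 13, 77 and 12 counts in luteolin replicates 1, 2 and 3. The log2 fold changes were 0.84 for Ctsf and 0.39 for Ctso, whose groups overlapped.

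Cathepsin activity is held back by cystatins, small proteins that block the active site, and several of their genes were higher in luteolin tumours. Of 27 listed genes of cystatins and related inhibitors, 24 were in the table and 10 were tested. Of these 10, 5 were higher at the study's threshold (Cst6, Cst7, Cstdc5, Ctla2a and Ctla2b) and 0 lower, against 11.3% and 1.52% of all genes tested. At an adjusted p under 0.05, edgeR called 0 of 10 higher, DESeq2 6 of 19 and limma's voom 2 of 10. Of all genes, 1.34%, 8.67% and 12.6% were higher by these tools at that adjusted p. The median log2 fold change was 1.69. Cst7, which encodes cystatin F, an inhibitor of cathepsin C in leukocyte lysosomes, had 65, 45 and 8 counts in control replicates 1, 2 and 3 and 232, 574 and 210 counts in luteolin replicates 1, 2 and 3. Its log2 fold change was 2.99 (standard error 0.77). Ctla2a, whose protein resembles the propeptide of cathepsin L, had 5.56 ± 2.36 CPM in control and 18.6 ± 7.60 CPM in luteolin tumours.

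The most abundant cystatin genes had close means in both groups. Cst3, which encodes cystatin C, the main secreted cystatin, had 346 ± 89.5 CPM in control and 347 ± 189 CPM in luteolin tumours. Cstb, which encodes cystatin B of the cytosol, had 138 ± 24.9 and 153 ± 20.4 CPM. Their log2 fold changes were 0.0029 (standard error 0.39) and 0.14 (standard error 0.18). Cst6, an epithelial cystatin, had 12549 counts in luteolin replicate 2, 144 and 28 in luteolin replicates 1 and 3 and 20 to 40 in the control libraries. Cstdc5, of the stefin A family of similar genes between which reads may be split, had 0 counts in each control library and 778, 6903 and 28 in luteolin replicates 1, 2 and 3. Against a limit of 3 counts per library the mean of the luteolin group is at least 705-fold higher, and at least 145-fold without luteolin replicate 2. Against a limit of 12 counts, for values that come in multiples of 4, the mean is at least 176-fold higher. The library with the most Cst6 and Cstdc5 counts is also the one with the most keratinocyte mRNA, whose part in these values was not tested.

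The sorting and processing of cathepsins depends on receptors and on other proteases. Of 15 such genes, 3 were higher at the study's threshold and 0 lower, against 11.3% and 1.52% of all genes tested. Their median log2 fold change was 0.05. Igf2r, the receptor that carries mannose 6-phosphate-tagged enzymes to the lysosome, had 25.9 ± 5.18 CPM in control and 62.7 ± 9.46 CPM in luteolin tumours (log2 fold change 1.28, standard error 0.21, edgeR adjusted p = 0.0437). The smaller receptor of the same tag, M6pr, had 379 ± 26.1 CPM in control and 351 ± 23.1 CPM in luteolin tumours. Scarb2, the receptor for glucocerebrosidase, had a log2 fold change of 1.36, and Sort1 of 2.31 with 4590 counts in luteolin replicate 2 and 412 and 371 in the others of its group. Lgmn, the gene of legumain, which cuts cathepsins B, H and L to forms of separate chains, had 299 ± 10.7 CPM in control and 482 ± 46.5 CPM in luteolin tumours, a log2 fold change of 0.69 that is under 2-fold. Psap and Lrp1, with Lgmn the most abundant of the list by the mean of all 6 libraries (in the control libraries M6pr was above Lgmn), had log2 fold changes of 0.48 and 0.28.

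Genes of the lysosome at large gave no call at the study's threshold. Of 53 genes of lysosomal enzymes, membrane proteins and the proton pump, 0 passed the study's threshold in edgeR, DESeq2 or limma's voom. In edgeR 11.3% of all genes were higher at that threshold and 1.52% lower. At an unadjusted p under 0.05, edgeR gave 5 higher and 1 lower, where 14% and 6.44% of all genes were. DESeq2 gave 5 and 2, where 14.2% and 6.73% were, and limma's voom 10 and 5, where 19.3% and 17.3% were. At an adjusted p under 0.05, edgeR and DESeq2 called 0. There limma's voom called 4 higher and 2 lower, where 12.6% and 8.76% of all genes were. The median log2 fold change was 0.0763. The summed level of the list was 5851 to 6136 CPM in the control libraries and 6158, 6465 and 6051 CPM in luteolin replicates 1, 2 and 3. Lamp1, Cd63 and Npc2, the most abundant, had log2 fold changes of -0.18, 0.22 and 0.43. Tfeb and Tfe3, whose factors bind the E-box of such genes, had log2 fold changes of 0.26 and 0.15, with overlapping groups. The list's counts are a description, and whether the cathepsins differ from it was not tested.

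**Figure D5:**
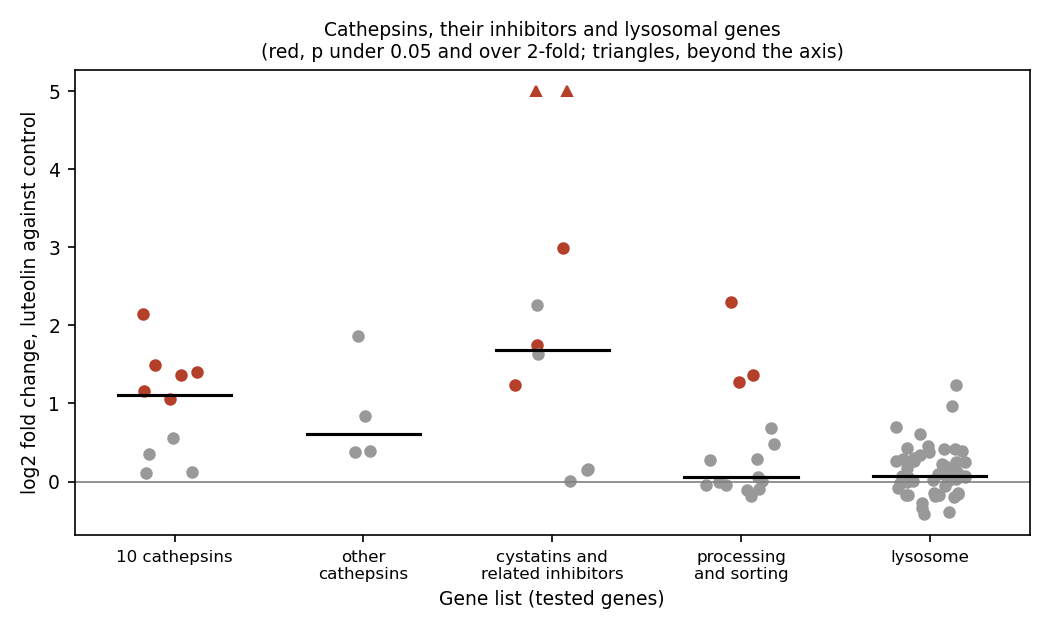
Log2 fold change, luteolin against control, of the tested genes of 5 lists, with red points for genes at an unadjusted p under 0.05 and over 2-fold, black lines for the median, and triangles at the upper edge for genes with a log2 fold change above 5. The medians are 1.11 for the 10 cathepsins, 0.613 for the other cathepsins, 1.69 for the cystatins, 0.0525 for processing and sorting and 0.0763 for the lysosome.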

How the data were processed

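RNA-seq counts of H22 tumours (3 control and 3 luteolin libraries) were analysed from 1 table, in which 0 sample columns were left out. The authors deposited estimated counts per gene symbol, as whole numbers not scaled between libraries. The submitters' processing notes name bcl2fastq 2.0, HISAT2, StringTie and DESeq2 and the builds rn6 and mm39. The annotation, counting settings and strand handling are not given in the sources used here. Labels name an RNeasy and a SMARTer kit, the paper Trizol and a TruSeq kit.

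Counts were compared in R 4.3.3 with edgeR 4.0.16 (TMM, filterByExpr, quasi-likelihood test, no covariates, two-sided, Benjamini-Hochberg over 14963 genes). The standard error is the log2 fold change divided by the root of the F statistic. Genes were called at an unadjusted p under 0.05 with over 2-fold, the study's threshold, and at an adjusted p under 0.05. Depth was 61081637 to 80442954 counts. Lengths and positions came from GENCODE M21 (GRCm38), which holds 21053 of the 21720 symbols, and promoters from RefSeq. Log2 CPM used a prior count of 2.

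The cathepsin genes and the lists were chosen with earlier results of these data known. Besides the 10 genes and all other cathepsins, genes were named by a rule: in each inhibitor, processing and lysosome list the 3 called genes of smallest p per direction and the 3 most abundant, and the 2 genes most correlated with each cathepsin. For marker lists the rule asked for the 3 most abundant, which the text does not name for every list. Others (Ctla2b, M6pr, Tfeb, Tfe3, Acp5, marker genes outside the 3 most abundant and genes at 0) were chosen after their values were seen. Protein sequences were not used here. Alternatives were DESeq2 1.42.0, limma 3.58.1 (voom with quality weights), other normalizations and filters, values divided by 4, GC content and length offsets, a replicate block and each library left out. The bound of Cstdc5 without 1 library was chosen after seeing the data. Scripts were tested on simulated data.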

Additional observations from a re-analysis of the deposited data

How the results depend on the processing

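Ctsk and Ctsh passed the p and 2-fold threshold in each of 17 alternative settings, Ctse in 16, Ctss in 14, Ctsc in 13 and Ctsw in 12, and Ctsb, Ctsl, Ctsd and Ctsz in 0. The count of 6 cathepsins higher fell to 3 with limma's voom (Ctsh, Ctsk and Ctss), to 3 with GC content and length offsets and to 3 with these offsets and the replicate block (Ctse, Ctsh and Ctsk both times), and ranged from 5 to 6 with each library left out. The offsets moved the median log2 fold change of all genes to -0.234, and the calls over all genes to 1382 higher and 468 lower, from 1687 and 227. Under them Ctsd was at -0.22 and Ctsz at -0.24, and relative to that median at 0.012 and -0.0055. Ctss, Ctsc and Ctsw were at 0.86, 0.99 and 0.89 under the offsets, each at an unadjusted p under 0.05, and at 1.09, 1.23 and 1.125 relative to that median. Under the offsets with the block Ctsd and Ctsz were at -0.25 and -0.29, and Ctsd was at -0.0048 with voom. At an adjusted p under 0.05 the count of 2 became 7 with DESeq2 and 7 with voom, where 8.67% and 12.6% of all genes were called higher against 1.34% in edgeR, 1 without the filter on low counts and 0 with the replicate block, and with each library left out it ranged from 0 to 3. It was 0 without control replicate 1, 2 or 3 or without luteolin replicate 1, where no gene of the whole table was called in edgeR and 1907 to 2462 had an unadjusted p under 0.05.

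The 5 cystatin and related genes called became 10 with DESeq2, 11 without the filter, 3 with a minimum of 10 counts in every library and 3 with the replicate block, and ranged from 4 to 11 with each library left out, with 11 without control replicate 2 and 8 without luteolin replicate 3. The 0 lysosomal genes became 1 with upper-quartile normalization, 1 with library totals only, and 0 to 1 with each library left out (1 without control replicate 3, luteolin replicate 1 or luteolin replicate 2). The difference of Ctss from the macrophage list ranged from -0.036 to 0.5 with each library left out. The cause of these changes was not tested. The replicate numbers did not pair the libraries, with correlations of their deviations of -0.196, -0.092 and 0.063 for numbers 1, 2 and 3. Beside the counts above, the replicate block over all genes lowered the adjusted calls from 200 higher and 28 lower to 34 and 1. With 3 libraries per group, p = 0.1 is the lowest value that the exact permutation test allows.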

Other observations

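The genes whose log2 CPM was most like that of each cathepsin over the 6 libraries were listed as a description. All 6 points carry the group difference and the library totals, and with 14962 genes compared high values occur for each cathepsin. Ctsk was most like Ass1, of arginine synthesis, and Slfn2 (Pearson r of 0.999 and 0.998). Ctsc was most like Scimp, an adaptor of antigen-presenting cells, and Nmi, an interferon-induced gene (0.999 and 0.997). Ctss was most like F10, the gene of coagulation factor X, and Pdcd1lg2, which encodes PD-L2 (0.997 and 0.995). Ctsh was most like Dennd2a and Hcls1, a haematopoietic gene (0.998 and 0.998), Ctsb like Evl and Zfp810 (0.998 and 0.995), and Ctsw like Ccdc88c and Tmem159 (0.998 and 0.997). Ctse was most like Adh7 and Ednra (0.996 and 0.995), Ctsd like Dapp1 and Treml2 (0.997 and 0.972), Ctsl like Plau and Hk2 (0.992 and 0.990) and Ctsz like Fam83d and Pcdhb11 (0.991 and 0.991).

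Among the cathepsins themselves, over the same 6 libraries, the Pearson r of log2 CPM was 0.973 between Ctsk and Ctsc and 0.965 between Ctsh and Ctsw. It was lowest between Ctsd and Ctsl, at -0.076.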
